A study of Drosophila melanogaster with 24 samples.

Results

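The cytoplasmic ribosomal protein genes were followed through a study of head and body trauma in Drosophila melanogaster. Members were the rows of the count table whose symbol begins with RpL or RpS and a digit, or with RpLP and a digit, which gave 92 of 16995 genes. Brains of single adult, mated w1118 flies, a white-eyed laboratory strain, were profiled by QuantSeq, a 3′ mRNA-Seq assay that reads the end of each polyadenylated transcript. The study asked how gene expression changes in the first hours after injury in each sex. The 8 groups were female-labelled and male-labelled flies that were uninjured (control) or were taken 1, 2 or 4 hr after a single strike of a spring device that throws the vial, and the flies in it, against a pad. Each group had 3 libraries, and 24 were made in all. No transgene was used, and the injury reached the whole body, of which only the brain was read.

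The ribosome is the machine that translates mRNA into protein. Its small subunit reads the codons, its large subunit joins the amino acids, and each is built from ribosomal RNA and a set of proteins needed in about equal numbers. A flexible stalk of RpLP0, RpLP1 and RpLP2 on the large subunit recruits the factors that drive translation. In growing cells the transcripts of these proteins are among the most abundant, and many animals hold them under common control by the Tor pathway. In flies, losing a copy of many of these genes gives the Minute phenotype of slow growth and short bristles. Several fly genes have a second copy that is used mainly in the gonads.

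Libraries differed widely in depth, and total counts ran from 46943 to 1769669 per library. On the scale used for levels below, CPM (counts brought to a common total, with TMM scaling), 1 count was worth 0.662 to 16.9 CPM and 3 counts, the limit that a count of 0 allows, 1.99 to 50.7 CPM. These limits cover counting error only. Since each transcript is read at its end, CPM values of different genes are not divided by length. Female 2 hr replicate 2 and female 4 hr replicate 2 stood apart from the rest: roX1, a noncoding RNA of the male dosage compensation complex, was at 6.02 and 78.1 CPM there and at 706 to 1249 CPM in the other 22 libraries, most female-labelled ones included. The sex labels are therefore given as labels only. The summed level of 14 neuron markers, all of which were detected, was 831 and 1597 CPM in the same pair and 3048 to 7788 CPM elsewhere, and elav, which marks neurons, was at 20.1 and 45.7 CPM against 141 to 385 CPM. The medians, the counts by p and most single fold changes at female 2 hr and 4 hr are given with and without these libraries. A lower level in a whole brain cannot tell fewer cells of a type from less RNA per cell.

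Ribosomal protein transcripts made up 16.2% to 21.3% of all counts in every library. At least 1 count was found for 86 of the 92 genes, and 81 were read in all 24 libraries. RpL15, a large subunit protein, led with a mean of 7834 CPM (range 4543 to 11770 CPM). RpS25, a small subunit protein needed in yeast and human cells for initiation at viral internal entry sites, followed at 7716 CPM (4111 to 12970 CPM). RpL8, which lies near the peptidyl transferase centre, had a mean of 6785 CPM, RpS14a of the small subunit 6531 CPM and the stalk protein RpLP1 5921 CPM. Together the 5 genes with the highest mean CPM held 19.6% of the family's counts on average, and the first 10 held 33.6%. Levels therefore spread widely for proteins that the ribosome holds in nearly equal numbers. RpL22 (154 CPM) and RpL34a (124 CPM) were the least abundant of the 81.

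The duplicated genes showed 1 main copy and 1 rare or unread copy in most pairs. RpL10Aa, RpL22-like, RpL7-like, RpS19b, RpS28-like and RpS28a had no count in any library. RpL22-like is known from the testis and RpS19b from the germline, and in the same libraries 10 germline markers summed to at most 11.1 CPM, with 4 of them at 0 throughout. Of their partners, RpL10Ab was at 1864 CPM on average, RpL7 at 2012 CPM, RpS19a at 1021 CPM, RpS28b at 2279 CPM and RpL22, the lowest, at 154 CPM. RpS5b, a germline copy, drew 87 counts over all libraries, of which 41 were in female 1 hr replicate 1 and 22 in female 4 hr replicate 3, while RpS5a had 5415. RpS10a drew 6 counts, RpL37b 12 and RpS15Ab 179. RpLP0-like, which resembles a yeast ribosome assembly factor, drew 227 counts, of which 126 were in female 2 hr replicate 2.

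Pairs in which both copies were read did not share the same level. RpS14a averaged 6531 CPM and RpS14b 333 CPM, but the copies are nearly identical in sequence, so that the split of reads between them is uncertain. RpL34b averaged 383 CPM, above RpL34a at 124 CPM. RpL24 averaged 2858 CPM (2009 to 3707 CPM). RpL24-like, related to a yeast assembly factor of the large subunit, ranged from 118 CPM in male 4 hr replicate 2 to 672 CPM in female 1 hr replicate 1. RpL37A and RpL37a, whose symbols differ only in case, are separate rows and were not taken as copies of each other. Their means were 846 and 1632 CPM. A further limit is overlap: 27 members lie over another gene on the opposite strand and 8 over another on the same strand. RpL39 and RpL12 lie over each other, and RpL23A, RpL4, RpL31, RpL41 and RpS23, described below, also overlap other genes. Whether reads were counted by strand is not stated.

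The share of the family differed little between groups. In female-labelled controls it was 17.4% ± 1.46 (SD, n = 3). The injured groups had 17.5% ± 1.59 (1 hr), 19.3% ± 1.47 (2 hr) and 19.1% ± 2.403 (4 hr). In male-labelled controls it was 17.9% ± 1.46, followed by 18.2% ± 0.288, 17.6% ± 0.864 and 17.6% ± 1.16. On the log2 scale the largest of these 6 differences from control was 0.14, at female 2 hr, and each group's values overlapped those of its control. Without the libraries that stood apart the share was 18.0% and 18.9% at female 2 hr and 16.5% and 19.4% at 4 hr. Without the 5 most abundant members the female 2 hr difference was 0.25 and the female 4 hr difference 0.22.

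**Figure D1:**
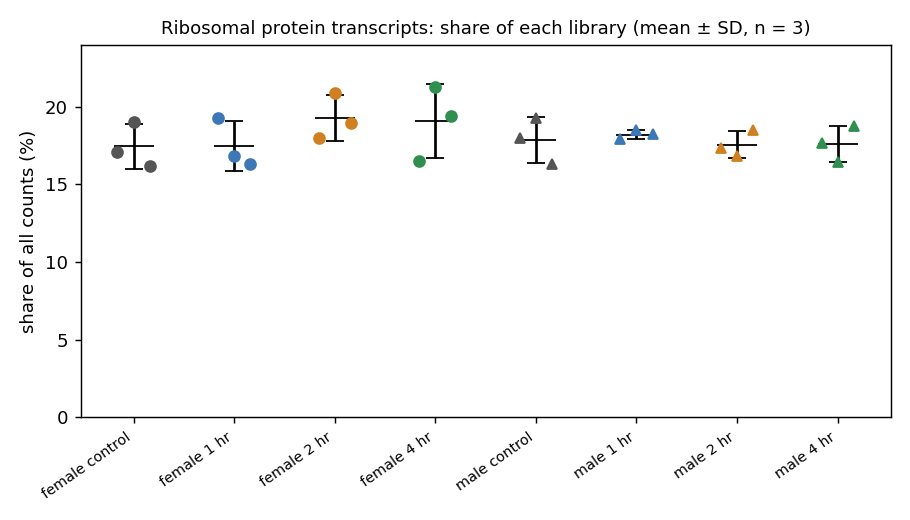
Share of all counts that fell on the 92 ribosomal protein genes, in percent, for each of the 24 libraries (points, circles for female and triangles for male labels), with mean and SD of each group (n = 3). Every library lies between 16.2% and 21.3%, and each injured group overlaps its control.

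A near constant total hid a large and ordered movement inside the family. An example with many counts was the pair of RpL39, a small protein of the tunnel through which the nascent chain leaves, and RpS25. Their count ratio does not depend on scaling. In female controls 1, 2 and 3 it was 0.335, 0.453 and 0.288. The 1 hr libraries gave 2.46, 0.438 and 0.168, the 2 hr libraries 0.431, 4.23 and 1.61, and the 4 hr libraries 0.333, 2.13 and 1.72. Replicate 1 alone exceeded the controls at 1 hr, where replicate 3 lay below all of them, and replicates 2 and 3 exceeded them at 2 hr and 4 hr, where replicate 1 lay within their range. In male controls the ratio was 0.302, 1.74 and 0.301. The 1 hr libraries gave 0.476, 0.669 and 0.468, the 2 hr libraries 0.237, 1.84 and 0.192, and the 4 hr libraries 0.404, 0.242 and 0.338. The high value thus occurred in an uninjured brain as well. Counting error is small beside these steps, with 95% exact intervals of 0.307 to 0.364 in female control 1 and 1.64 to 1.84 in male control 2. The pair was chosen after its values were seen, so the ratios are a description.

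**Figure D2:**
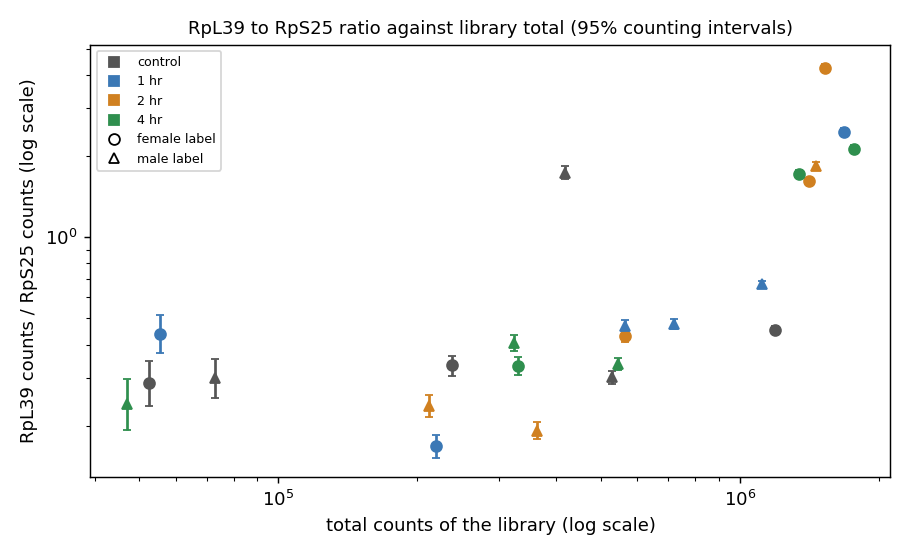
Ratio of RpL39 to RpS25 counts in each library (log scale, with 95% counting intervals) against the library's total count (log scale), coloured by time and shaped by sex label. The ratio is 1.61 to 4.23 in 6 of the 8 libraries above 1000000 counts, 0.453 and 0.669 in the other two, and below 0.5 in all smaller libraries except male control 2 at 1.74.

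Depth moved with this ratio. Of the 8 libraries above 1000000 counts, 6 had ratios of 1.61 to 4.23, whereas female control 2 (0.453) and male 1 hr replicate 2 (0.669) did not reach 1. Among the 16 smaller libraries only male control 2, with 418494 counts, exceeded 1. Neuron markers moved too: their summed level was 831 to 5123 CPM in the 8 deep libraries and 3154 to 7788 CPM in the others, where the lowest value was that of male control 2. The part of depth and of cell composition in the ratio was not tested. Deep libraries were unevenly spread: female 2 hr and 4 hr had 2 each, the female controls, female 1 hr, male 1 hr and male 2 hr had 1 each, and the male controls and male 4 hr had 0.

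The movement reached well beyond that pair. Each member's share of the family's counts was averaged over the 8 deep and the 16 other libraries, a split by depth made after the data had been seen and given without a test. The share was more than 2-fold higher in the deep libraries for 11 of 81 members, more than 2-fold lower for 4, and within 2-fold for 66. RpL23A, which sits at the tunnel exit, held 0.322% ± 0.195 (SD, n = 8) of the family's counts in deep libraries and 0.103% ± 0.0862 (SD, n = 16) in the others. RpL4, a protein of the tunnel wall, held 0.286% ± 0.193 and 0.104% ± 0.0473. RpL41, the smallest of the proteins, held 3.99% ± 2.12 and 1.69% ± 0.526, and RpS3A of the small subunit 0.694% ± 0.278 and 0.281% ± 0.136. In the opposite direction RpLP0, the base of the stalk, held 1.37% ± 0.383 and 3.78% ± 1.05, and RpS27 of the small subunit 0.932% ± 0.255 and 2.17% ± 0.586. RpL22 was most unequal, with 0.0320% ± 0.00827 in deep libraries and 0.125% ± 0.0512 in the others. Members of both subunits stood at each end, and the ratio of large to small subunit counts stayed between 1.34 and 1.77.

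**Figure D3:**
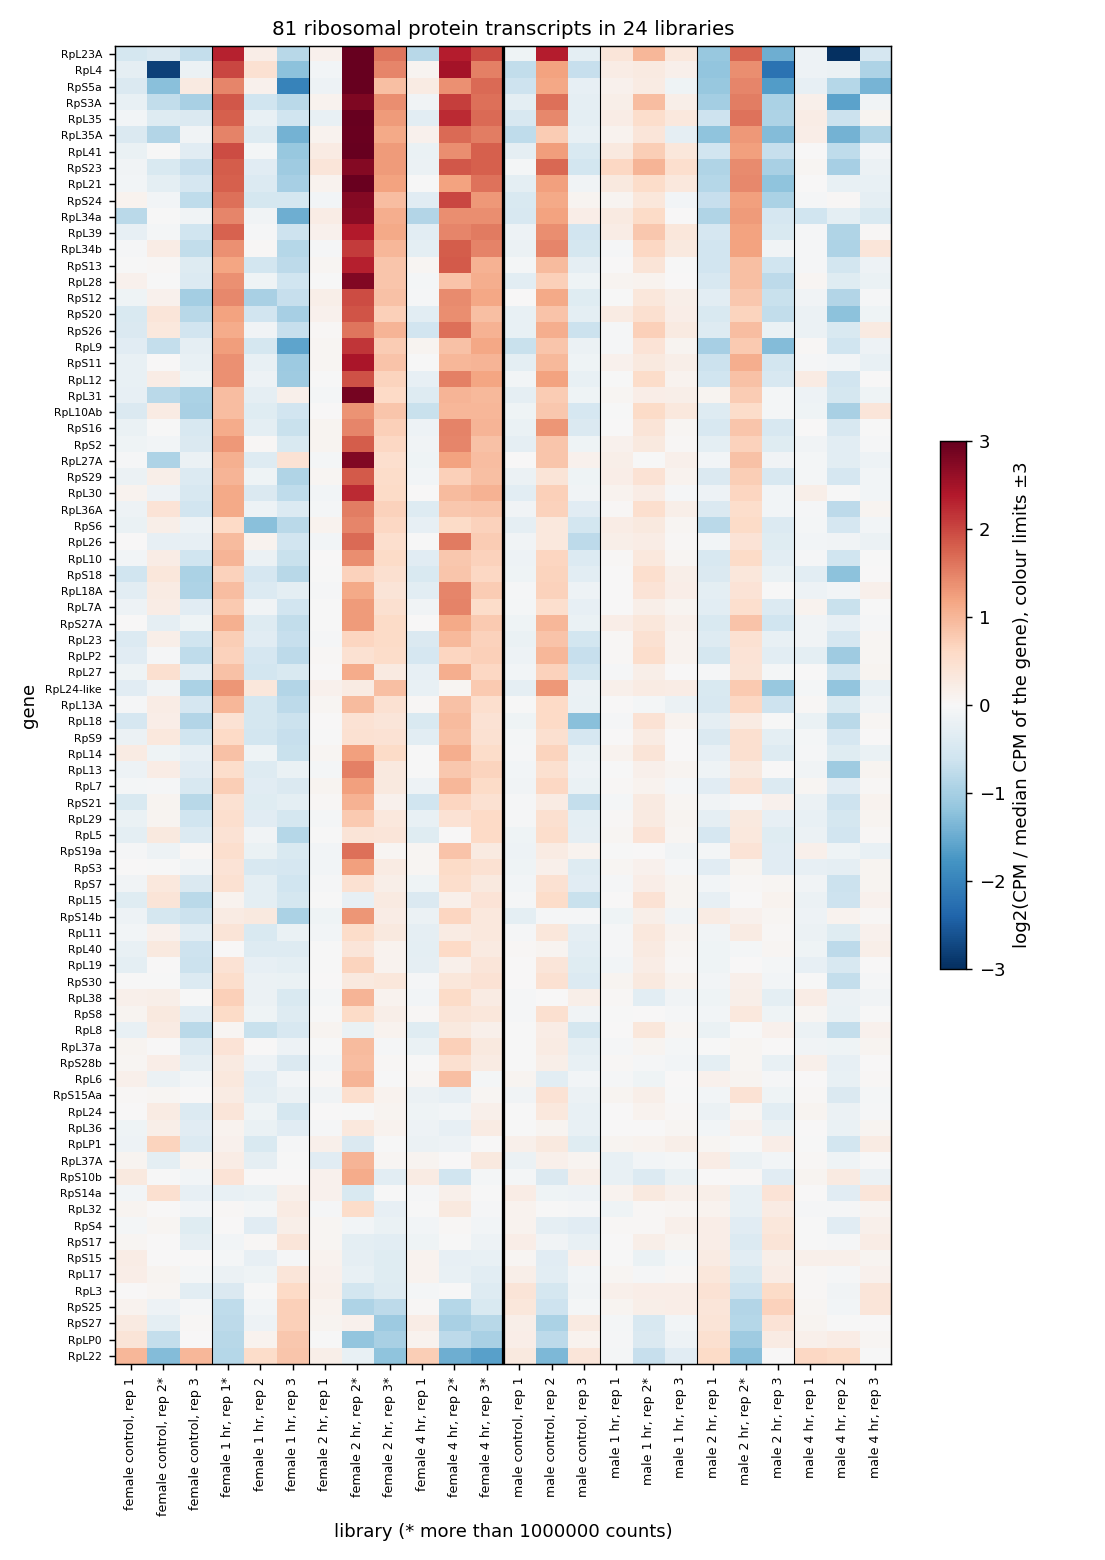
Level of the 81 members read in every library (rows) in the 24 libraries (columns, a star marks more than 1000000 counts), as log2 of CPM over the gene's own median. Rows are ordered by the ratio of their family share in deep to other libraries, from RpL23A at the top to RpL22 at the bottom. The upper rows are high in the same libraries in which RpLP0 and RpS25 are both low, which follows in part from this order. In female control 2, a deep library, RpLP0 was at 3289 CPM but RpL23A at 129 CPM and RpL4 at 27.4 CPM.

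Within the family, the rise in these libraries was not confined to a few members. The number of members more than 2-fold above their own median was 47 in female 2 hr replicate 2, 30 in female 1 hr replicate 1, 28 and 22 in female 4 hr replicates 2 and 3, 17 in male control 2, 14 in male 2 hr replicate 2 and 11 in female 2 hr replicate 3. It was 0 or 1 in each of the other 17. The same count was not made over all genes, so whether it is particular to the members was not tested. Across libraries the SD of log2 CPM ran from 0.17 to 1.57 among the 81 members, with a median of 0.53, against a median of 0.72 over all 2525 genes read in every library. RpL23A varied most, from 16.9 CPM, a single count, in male 4 hr replicate 2 to 2369 CPM in female 2 hr replicate 2. RpL4 ranged from 27.4 to 2087 CPM and RpS5a from 38.3 to 1762 CPM.

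RpL32 was among the steadiest members. It is a large subunit protein and served as the reference transcript for qRT-PCR in the study. Its levels were 2980, 2834 and 2671 CPM in female controls, then 2879, 2699 and 3341 CPM (1 hr), 2763, 4118 and 2385 CPM (2 hr) and 2768, 3436 and 2736 CPM (4 hr). In male controls they were 3045, 2786 and 2749 CPM, then 2582, 2900 and 2922 CPM (1 hr), 3047, 2414 and 3327 CPM (2 hr) and 2762, 2755 and 2952 CPM (4 hr). All groups overlapped, and the log2 fold changes against control were between -0.07 and 0.10, and -0.14 and -0.036 at female 2 hr and 4 hr without the libraries that stood apart. Its SD of log2 CPM, 0.17, was the lowest of the 81 with TMM scaling, 0.22 and rank 14 with library size alone, and 0.26 and rank 9 with RLE. The lowest were RpL11 (0.12) with library size alone and RpS15 (0.17) with RLE, while RpL36 ranked 2, 5 and 7 under the 3 scalings. As a share of the family, however, RpL32 was at 1.31% ± 0.133 (SD, n = 8) in deep libraries and 1.795% ± 0.244 (SD, n = 16) in the others.

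The stalk proteins did not move as a unit. RpLP0 was at 7053, 3289 and 5449 CPM in female controls, 3013, 5799 and 9426 CPM at 1 hr, 5359, 2389 and 2743 CPM at 2 hr and 5785, 3112 and 2742 CPM at 4 hr. RpLP2 was at 4344, 5386 and 3254 CPM in female controls, 8803, 3840 and 3205 CPM at 1 hr, 5601, 7576 and 7975 CPM at 2 hr and 3875, 8569 and 8956 CPM at 4 hr. Where RpLP0 was low RpLP2 was high, so that the count ratio of RpLP0 to RpLP2 ran from 0.287 in male control 2 to 2.94 in female 1 hr replicate 3. RpLP1, which pairs with RpLP2 in the stalk, moved less, between 4039 CPM in male 4 hr replicate 2 and 9413 CPM in female control 2. In edgeR's test the log2 fold change at female 2 hr was -0.60 ± 0.51 (SE) for RpLP0 (adjusted p = 0.872), -0.21 ± 0.38 for RpLP1 (adjusted p = 0.913) and 0.68 ± 0.45 for RpLP2 (adjusted p = 0.855). Without the libraries that stood apart these were -0.39 ± 0.51, -0.033 ± 0.35 and 0.66 ± 0.48 (adjusted p = 0.999 each). In male-labelled flies RpLP2 went from 4920, 10860 and 3400 CPM in controls to 4453, 2619 and 5673 CPM at 4 hr, a log2 fold change of -0.63 ± 0.40 (adjusted p = 0.999) that was 0.033 without male control 2.

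RpS27A and RpL40 are made as fusions to ubiquitin, the protein tag for degradation, and are a main source of it. RpS27A was at 885, 730 and 813 CPM in female controls and at 887, 1937 and 1513 CPM at female 4 hr, where all 3 libraries exceeded all controls, 1 of them by little. Its log2 fold change was 0.82 ± 0.52 (SE) and did not pass edgeR's test (adjusted p = 0.929). RpL40 was at 2992, 4262 and 2272 CPM in female controls and at 2849, 5299 and 4177 CPM at 4 hr, which overlap (log2 fold change 0.36 ± 0.38, adjusted p = 0.929). Without the libraries that stood apart the values were 0.58 ± 0.50 for RpS27A and 0.16 ± 0.34 for RpL40 (edgeR adjusted p = 0.999 each). In male-labelled flies RpS27A was at 802, 1760 and 770 CPM in controls and 825, 744 and 863 CPM at 4 hr.

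**Figure D4:**
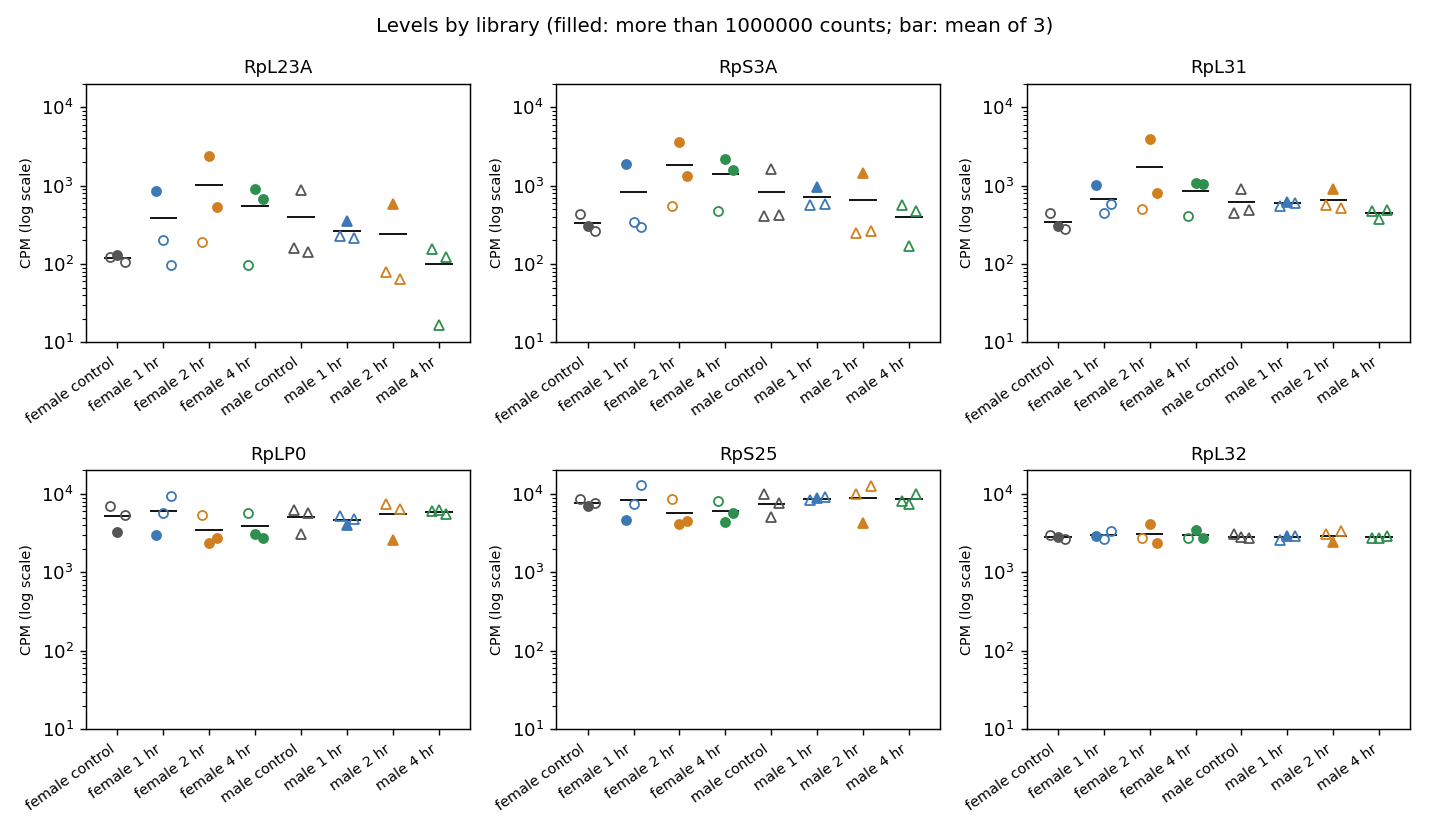
Levels (CPM, log scale) of RpL23A, RpS3A, RpL31, RpLP0, RpS25 and RpL32 in each library by group, with group means as bars. Filled points are libraries above 1000000 counts. RpL32 stays between 2385 and 4118 CPM, while RpL23A spans 16.9 to 2369 CPM.

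No member was called changed in any of the 6 comparisons of injured flies with their own controls. A call needed an adjusted p under 0.05 with a log2 fold change over 1 in size in edgeR's quasi-likelihood test, and over all genes tested (5918 for female and 4474 for male labels) the share called was 0% in each comparison. DESeq2 and limma-voom called 0 members as well. With no filter on low counts edgeR called 8 of 85 members tested at female 2 hr (95 of 9919 genes), RpL31, RpL23A and RpS3A among them. At male 4 hr it called RpL23A alone of 86 members tested (7 of 9666 genes). At an unadjusted p under 0.05 limma-voom had more members than edgeR at female 2 hr, female 4 hr, male 1 hr and, in the lower direction, male 2 hr. The last section gives these numbers, and the numbers of all genes called with no filter. Counts at an unadjusted p under 0.05 and counts of members whose libraries all lie above or below all controls are given with the share of all genes that met the same criterion in that fit. The comparisons of a sex label share their 3 controls.

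At female 1 hr, 65 of 81 members had a positive log2 fold change, with a median of 0.22 against 0.05 over all genes. None was higher or lower at an unadjusted p under 0.05, where 1.39% and 0.27% of all genes were. None lay wholly above the controls (3.62% of all genes) and only RpS15 lay wholly below (3.3%). The members with smallest p were RpL23A, RpL4 and RpS3A. RpL23A was at 122, 129 and 107 CPM in controls and 865, 201 and 97.9 CPM at 1 hr (log2 fold change 1.70 ± 0.96, SE, adjusted p above 0.99). RpL4 was at 157, 27.4 and 169 CPM in controls and 761, 262 and 80.9 CPM at 1 hr. RpS3A was at 436, 308 and 261 CPM in controls and 1869, 339 and 294 CPM at 1 hr. In each of the 3 genes replicate 1 alone was far above the controls, and without it the median over the members was -0.27 and the log2 fold changes were 0.25 for RpL23A, 0.54 for RpL4 and -0.11 for RpS3A. Without replicate 3 of the group 4 of 84 members passed that p in the higher direction (2.3% of all genes).

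At female 2 hr the family lay highest. The log2 fold change was positive in 71 of 81 members, with a median of 0.72 against 0.00 over all genes. At an unadjusted p under 0.05, 19 members were higher (6.93% of all genes) and 0 lower (0.203%), and 21 lay wholly above the controls (9.56%) and 0 wholly below (5.17%). RpL31, a protein beside the tunnel exit, was at 448, 304 and 276 CPM in controls and 510, 3888 and 806 CPM at 2 hr. All 3 injured libraries were higher, replicate 1 by little, and the log2 fold change was 2.28 ± 0.69 (SE, edgeR adjusted p = 0.52). RpL23A reached 191, 2369 and 533 CPM, a log2 fold change of 3.04 ± 0.997 (adjusted p = 0.535). RpS3A reached 546, 3582 and 1339 CPM, a log2 fold change of 2.39 ± 0.81 (adjusted p = 0.535). In all 3 genes replicate 1 was nearest to the controls, replicate 2 highest and replicate 3 between them. The other 16 members higher at an unadjusted p under 0.05 had log2 fold changes of 1.37 (RpL30) to 3.002 (RpL4), and 11 of them were large and 5 small subunit proteins.

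The female 2 hr values rested in good part on the library that stood apart. Without female 2 hr replicate 2 the median over the members was 0.39, and the log2 fold changes were 0.94 for RpL31, 1.60 for RpL23A and 1.49 for RpS3A. The number higher at an unadjusted p under 0.05 was then 0 (1.77% of all genes). Without replicate 1 of that group, the library nearest to the controls, it was 29 (9.22%), without female control 2 it was 12 (4.14%) and without female control 3 it was 11 (5.38%). Leaving out female 4 hr replicate 2 together with female 2 hr replicate 2 gave a median of 0.40 and again 0 members (2.05%). With log2 total count as a covariate, which was tried in view of the data, the median was 0.23 and the count 0 (2.81%). The SD between replicates of a library's median member level was 0.58 on the log2 scale in female-labelled libraries. RpS25 was at 8508, 7075 and 7674 CPM in controls and 8522, 4111 and 4582 CPM at 2 hr, below all controls in replicates 2 and 3 only (log2 fold change -0.45 ± 0.44, adjusted p = 0.873, and -0.25 ± 0.41 without the libraries that stood apart).

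At female 4 hr, 69 of 81 members had a positive log2 fold change, with a median of 0.60 against 0.04 over all genes. At an unadjusted p under 0.05, 6 members were higher (4.78% of all genes) and 0 lower (0.304%), and 9 lay wholly above the controls (7.84%) and 0 below (3.92%). RpS3A was at 477, 2159 and 1606 CPM, all above its controls, with a log2 fold change of 2.06 ± 0.80 (SE, adjusted p = 0.929). RpL4 was at 201, 1066 and 542 CPM, with a log2 fold change of 2.41 ± 1.001 (adjusted p = 0.929). RpS23, a protein of the decoding centre, was at 900, 713 and 599 CPM in controls and 859, 3514 and 3346 CPM at 4 hr, a log2 fold change of 1.79 ± 0.76 (adjusted p = 0.929). Replicate 1 was at or near the control level in each and replicates 2 and 3 were high. RpL23A, RpL35 and RpL35A were the other members at an unadjusted p under 0.05. Without female 4 hr replicate 2 the median was 0.38 and 0 members passed that p (1.5% of all genes), and the log2 fold changes were 1.63 for RpS3A, 1.73 for RpL4 and 1.505 for RpS23. Without replicate 1 of the group 21 members passed (7.4%), without female 2 hr replicate 2 it was 16 (6.5%), and without female control 2 or 3 it was 1 (2.46% and 3.47%). Without both libraries that stood apart the median was 0.40 with 2 members (2.5%).

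**Figure D5:**
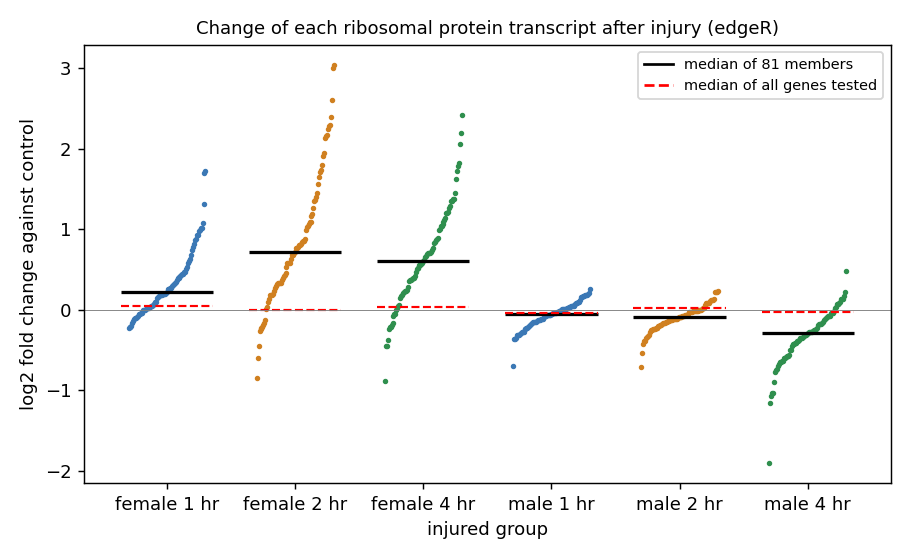
Log2 fold change of each of the 81 tested members (points, sorted within a comparison) for the 6 injured groups against control, from edgeR's fit. Black bars are member medians and dashed red lines the medians of all genes tested. The member median is 0.72 at female 2 hr and 0.60 at female 4 hr, and -0.29 at male 4 hr.

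In male-labelled flies the members lay closer to their controls. At 1 hr 30 of 81 had a positive log2 fold change, with a median of -0.05 against -0.04 over all genes. None was higher (0.849% of all genes) or lower (0.693%) at an unadjusted p under 0.05, and none lay wholly above (6.3%) or below (2.91%) the controls. RpL27A, with the smallest p, was at 937, 1655 and 1019 CPM in controls and 1060, 930 and 1037 CPM at 1 hr (log2 fold change -0.31 ± 0.31, SE). RpL38, which in the mouse is needed for translation of patterning genes, was at 1451, 1508 and 1694 CPM and then 1539, 1195 and 1384 CPM. RpS4 was at 4736, 3641 and 3483 CPM and then 4510, 4543 and 4894 CPM. In all 3 genes control and injured values overlapped, and without male control 2 the log2 fold change of RpL27A was 0.051.

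At male 2 hr, 19 members had a positive log2 fold change, with a median of -0.09 against 0.02 over all genes. None was higher (1.34%) or lower (1.1%) at an unadjusted p under 0.05. RpS14b alone lay wholly above the controls (2.37%), and 0 members wholly below (1.86%). RpS4 was at 5076, 3504 and 5618 CPM, a log2 fold change of 0.23 ± 0.20 (SE). RpL24-like went from 220, 661 and 237 CPM in controls to 193, 464 and 122 CPM, and RpL24 from 2887, 3594 and 2488 CPM to 2560, 2985 and 2309 CPM. Replicate 2 was the highest library for both genes in both groups, and without male control 2 the log2 fold change of RpL24-like was 0.28.

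At male 4 hr the members leaned the other way. The log2 fold change was positive in 13 and negative in 68, with a median of -0.29 against -0.02 over all genes. At an unadjusted p under 0.05 none was higher (0.693%) and RpL23A was lower (1.23%), while none lay wholly above the controls (4.05%) and RpL27A wholly below (3.44%). RpL23A went from 160, 891 and 142 CPM to 156, 16.9 and 123 CPM, a log2 fold change of -1.90 ± 0.87 (SE, edgeR adjusted p = 0.999). Here the highest control was replicate 2 and the lowest injured value a single count in the smallest library. RpL27A went to 900, 744 and 837 CPM (log2 fold change -0.58 ± 0.31, adjusted p = 0.999). RpS18, a protein of the small subunit head, went from 1541, 2687 and 1339 CPM to 1346, 710 and 1694 CPM (log2 fold change -0.60 ± 0.34, adjusted p = 0.999). Without male control 2 the log2 fold changes were -0.40 for RpL23A, -0.23 for RpL27A and -0.18 for RpS18.

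Male control 2 set the sign in the male-labelled comparisons. It was the control in which RpL39 exceeded RpS25, and without it the member medians were 0.33 at 1 hr, 0.27 at 2 hr and 0.03 at 4 hr. Without male 2 hr replicate 2 the 2 hr median was -0.42, and at an unadjusted p under 0.05 27 members were lower (7.39% of all genes) and 2 higher (2.98%). Leaving that library out of the fit also raised the number lower at male 4 hr from 1 to 8 (3.59%).

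Between the uninjured groups, 15 of 82 members tested were higher in female-labelled brains, with a median log2 fold change (female over male) of -0.23 against -0.02 over all 5462 genes. None was called (0% of all genes), none was higher (0.531%) or lower (1.5%) at an unadjusted p under 0.05, none lay wholly above (3.5%), and RpL23A and RpL27A lay wholly below (3.86%). RpL23A was at 122, 129 and 107 CPM in the female-labelled and 160, 891 and 142 CPM in the male-labelled controls (log2 fold change -1.74 ± 1.01, SE). Without male control 2 the median was 0.03 and RpL23A's log2 fold change -0.34.

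The change from control was also compared between the sex labels as an interaction. No member was called at any time (0% of all genes each). At 1 hr, 60 of 82 members had a more positive change in female-labelled flies, with a median difference of 0.24 on the log2 scale against 0.06 over all genes. None passed an unadjusted p of 0.05 in either direction (1.23% and 0.494% of all genes). At 2 hr, 70 members had a more positive change, with a median difference of 0.87 against -0.06, and 17 (4.91% of all genes) passed in that direction and 0 (0.531%) in the other. At 4 hr, 70 members had a more positive change, with a median difference of 0.93 against 0.03, and 17 (5.68%) and 0 (0.677%) passed. Without female 2 hr replicate 2 the 2 hr number was 0 (1.63%) and without male 2 hr replicate 2 it was 34 (10.7%). At 4 hr it was 0 (2.43%) without male control 2 and 33 (8.91%) without female 4 hr replicate 1. RpL23A had the largest difference at 4 hr, 4.12 ± 1.44 (SE, adjusted p = 0.733), which was 2.68 without male control 2. With log2 total count as a covariate the 4 hr median difference was 0.39 and 0 members passed an unadjusted p of 0.05 (2.75%). At 2 hr, however, 14 members still passed with this covariate (4.89%), and 2 did at 1 hr (2.71%).

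Other genes of translation were counted from lists. sta and Rack1, small subunit proteins whose symbols do not follow the rule, had log2 fold changes of 0.04 ± 0.37 and 0.89 ± 0.56 (SE) at female 2 hr, and -0.0020 ± 0.32 and 0.24 ± 0.46 without the libraries that stood apart. No gene of any list below was called in any comparison. At female 2 hr, 7 of 64 tested proteins of the mitochondrial ribosome were higher at an unadjusted p under 0.05 and 0 lower, with a median log2 fold change of 0.497, and at female 4 hr 8 of 64 and 0, with a median of 0.79. The share of all genes higher at that p was 6.93% and 4.78%. Without the libraries that stood apart it was 2.05% and 2.5%, and 1 of 48 mitochondrial ribosome proteins was higher at each time (medians 0.34 and 0.23). For initiation factors the female 2 hr counts were 3 of 23 and 0, with a median of 0.08, led by eIF-2alpha, which brings the initiator tRNA (log2 fold change 2.20, adjusted p = 0.514). For elongation factors they were 1 of 6 and 0, Ef1alpha48D, which delivers tRNAs to the ribosome (2.08, adjusted p = 0.545). For ribosome assembly factors they were 2 of 22 and 0, and for 17 regulators of ribosomal protein genes and translation 0 and 0, with medians of 0.82 and -0.38. Without the libraries that stood apart, the female 2 hr counts were 1 of 22 initiation factors, 0 of 6 elongation factors, 0 of 14 assembly factors (1 lower) and 0 of 15 regulators, with medians of -0.14, 0.17, 0.051 and -0.25. The log2 fold change was then 1.53 for eIF-2alpha and 0.47 for Ef1alpha48D (edgeR adjusted p = 0.999 each). In male-labelled flies the median over the mitochondrial ribosome was 0.12, -0.15 and -0.30 at 1, 2 and 4 hr.

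Markers of other cells were at these levels in the libraries that lead the female-labelled results. Fat body markers, 10 genes of which 1 had no count, summed to 39320 CPM in female 1 hr replicate 1 and 38540 CPM in female 2 hr replicate 2, against 5266 to 13420 CPM in the other 22. This rested on Yp1, Yp2 and Yp3, the yolk proteins, which summed to 35110 and 34990 CPM in that pair and 429 to 9932 CPM in the others. The other markers of the list summed to 4209 and 3552 CPM there, within the 2625 to 6456 CPM of the rest. Photoreceptor markers, 15 genes of which 1 had no count, summed to 9300 to 15330 CPM at female 2 hr and 4685 to 9212 CPM in female controls. Muscle markers summed to 1204 CPM in female 2 hr replicate 2 and 1160 CPM in female 4 hr replicate 2. In the other 22 libraries they summed to 3059 to 5337 CPM. Hemocyte markers were at 626 and 711 CPM in these libraries that stood apart and at 201 to 492 CPM elsewhere. Glial markers were at 1223 and 1671 CPM there and at 1636 to 2560 CPM elsewhere. The part of these cells in the values of the ribosomal protein transcripts was not tested.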

How the data were processed

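The authors deposited a table of whole-number read counts of 16995 genes in 24 libraries, with no scaling. De-multiplexing with CASAVA 1.8.2, alignment of QuantSeq 3′ FWD reads to dm3 with STAR 2.4 and counting with HTSeq are named by the submitters. HTSeq's annotation and use of strand are not stated in the sources. Tables of the authors' own comparisons (edgeR 3.22.3: log2 fold changes, p-values) were not used.

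Tests were run on counts in R 4.3.3 with edgeR 4.0.16 (quasi-likelihood test, TMM scaling, filterByExpr, Benjamini-Hochberg adjustment over all genes). The 6 comparisons with control were fitted on 12 libraries each, those of 1 sex label. The comparison of controls and the interactions used all 24. Replicates are separate flies per the study's methods. CPM levels were TMM-scaled over 24 libraries, with no filter. A fold change of a gene with few counts depends on edgeR's prior count. The SE printed with a log2 fold change is its size divided by the square root of the test's F statistic. It is not an output of edgeR. Same-numbered libraries deviated together, with correlations above 0.1 in all 3 pairs only for male 1 hr (0.138 to 0.402) and male 2 hr (0.182 to 0.586) with control. The labels give the numbers no meaning.

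Named members were RpL32, the stalk and ubiquitin-fusion genes, the 5 highest and 3 lowest by mean CPM, duplicated pairs and, per comparison with control, the 3 smallest p. Genes outside it were chosen after their values were seen. The members and lists were chosen with earlier results of these data known. Alternatives were RLE, library size alone, TMM without members, no filter, DESeq2 1.42.0, limma-voom 3.58.1 with sample weights, a replicate block, all 24 libraries in each fit, exclusions of libraries, and log2 total count as a covariate, added after seeing the data. The test was tried first on simulated counts. The reference, a later build than dm3, served for names and gene neighbours only: 90 members matched RefSeq symbols and 2 synonyms. Figures were drawn with matplotlib.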

Additional observations from a re-analysis of the deposited data

How the results depend on the processing

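With no filter on low counts, 8 of 85 members were called at female 2 hr, where 95 of 9919 genes tested were. At male 4 hr 1 of 86 members was called (7 of 9666 genes). In each of the interactions at 2 hr and 4 hr 1 of 86 was called (27 and 6 of 10345 genes). Under every other alternative, and in all other comparisons, 0 members were called, from 0 to 0 when each library was left out in turn. Leaving out 1 library at a time moved the median log2 fold change of the members from -0.27 to 0.45 at female 1 hr, 0.39 to 0.97 at 2 hr and 0.38 to 0.86 at 4 hr. The ranges were -0.16 to 0.33, -0.42 to 0.27 and -0.45 to 0.03 at male 1, 2 and 4 hr, -0.40 to 0.03 between controls, and -0.29 to 0.44, 0.46 to 1.14 and 0.56 to 1.15 for the interactions. With log2 total count as a covariate the 4 hr interaction was 0.39. At an unadjusted p under 0.05 this covariate gave 6, 9 and 2 members lower at male 1, 2 and 4 hr. The share of all genes was 4.2%, 3.26% and 2.03%, and the main fit had 0, 0 and 1 members lower. The family share at female 4 hr, 0.13 on the log2 scale, was 0.28 without the 100 most abundant other genes in the total. RpL27A at male 1 hr was 0.023 under limma-voom and -0.48 to 0.051 with each library left out (0.051 without male control replicate 2). RpL24-like at male 2 hr ranged from -1.37 to 0.28 (without male control replicate 2) and RpS3A at female 1 hr from -0.11 (without female 1 hr replicate 1) to 1.72. The cause was not tested. Library size alone gave medians of 0.35 and 0.33 at female 2 and 4 hr (all genes -0.26 and -0.19). DESeq2 gave 0.96 at female 2 hr, with 28 members higher at an unadjusted p under 0.05 (9.41% of all genes). At that p limma-voom had 35 members higher and 3 lower at female 2 hr (7.43% and 7.82% of all genes). It had 45 and 2 at female 4 hr (8.11% and 7.69%) and 14 and 0 at male 1 hr (3.33% and 3.15%). At male 2 hr it had 0 and 6 (1.32% and 2.5%). The interactions had 38 and 6 at 2 hr (8.09% and 7.73%) and 28 and 2 at 4 hr (6.37% and 7.16%). With the replicate block the medians were 0.28, 0.70 and 0.62 at female and 0.01, -0.11 and -0.18 at male 1, 2 and 4 hr, no call changed, and 11 and 2 members were higher at that p at female 2 and 4 hr (4.9% and 3.3% of all genes), against 19 and 6 without it.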
